A study of Mus musculus with 8 samples.

Results

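The regions described here are 1430 stretches of open chromatin in mouse macrophages that were less accessible after LPS in both animals studied, out of 74207 peaks in the deposited ATAC-seq table. They were chosen by measured values: in each of 2 mice the ratio of (LPS + 4 RPKM) to (unstimulated + 4 RPKM) had a log2 of -0.585 or lower, which is a fall of at least 1.5-fold, and the mean of the 8 columns was above 9.71 RPKM. RPKM here is a read density: reads per kilobase of peak, scaled to all reads of the library that fell in peaks, so each value is relative to the rest of the library. In bulk cells, fewer cells with an open site and less opening per cell cannot be told apart. The limit on the mean was passed by 66772 peaks, which were the ones tested. The fold limit alone was met by 1632 peaks, and 202 of these were left out by the limit on the mean. The fall with LPS against unstimulated cells is therefore how the regions were selected and is given as a description, with no test.

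Macrophages were grown in CMG medium with serum from the bone marrow of WT C57Bl/6 mice. From each of the 2 mice came 1 library of cells given 1 µM fenoterol for 15 min and then 100 ng/mL LPS for 1 h, 1 of cells given fenoterol alone for 15 min, 1 of cells given LPS alone for 1 h, and 1 of unstimulated cells, so each group had n = 2. All groups share genotype, strain and culture, and nothing in the labels gives the animals' sex or age. The time since fenoterol differs between the groups that received it, because cells given both agents had a further hour with LPS. Sites are named by their coordinates on build mm9. Genes, macrophage marker genes and DNA sequences were not assigned to them, since no genome or gene annotation of that build was used here.

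Macrophages hold open many distal enhancers that are bound by lineage factors such as PU.1 and C/EBP proteins together with signal-dependent factors such as AP-1. LPS acts through Toll-like receptor 4 and brings NF-κB, AP-1 and, later, interferon regulatory factors to chromatin, which opens new sites, while other enhancers lose factor binding and accessibility within the same period. Fenoterol activates the β2 adrenergic receptor, which couples to Gs and raises cyclic AMP.

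In 7 libraries 3164446 to 4040292 reads fell in peaks, and mouse 1's unstimulated library had 1426873. In that shallow library the median chosen region held 13 reads, with an exact 95% Poisson interval of 6.92 to 22.2 that covers counting error only. In the other 7 libraries the median was between 15 reads, in both LPS libraries, and 34 reads, in mouse 2's unstimulated library. Fewer than 20 reads were present at 1003 of the 1430 regions in the shallow library.

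In LPS-treated cells these regions were weakly accessible, and in unstimulated cells they lay above the typical peak. The median level was 11.5 RPKM (quartiles 7.80 and 17.6) in mouse 1 and 11.1 RPKM (7.90 and 17.2) in mouse 2 with LPS. In unstimulated cells it was 24.5 RPKM (17.8 and 34.9) in mouse 1 and 23.3 RPKM (17.6 and 33.8) in mouse 2. All tested peaks had medians of 18.8 and 19.3 RPKM with LPS and of 17.6 and 19.3 RPKM unstimulated. The regions thus crossed from above the median of tested peaks to below it, which the selection favours.

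The 4 libraries with fenoterol entered the choice through the limit on the mean of the 8 columns and not through the fold limits. With fenoterol + LPS the median level was 13.3 RPKM (9.69 and 19.2) in mouse 1 and 12.9 RPKM (9.56 and 18.9) in mouse 2. With fenoterol alone it was 19.6 RPKM (14.3 and 30.0) in mouse 1 and 20.1 RPKM (14.7 and 30.2) in mouse 2. Tested peaks as a whole had medians of 19.6 and 19.8 RPKM with fenoterol + LPS and of 18.8 and 19.6 RPKM with fenoterol. At 1044 of the 1430 regions (73.0%) both fenoterol + LPS libraries lay below both fenoterol libraries, against 31.7% of all tested peaks.

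**Figure D1:**
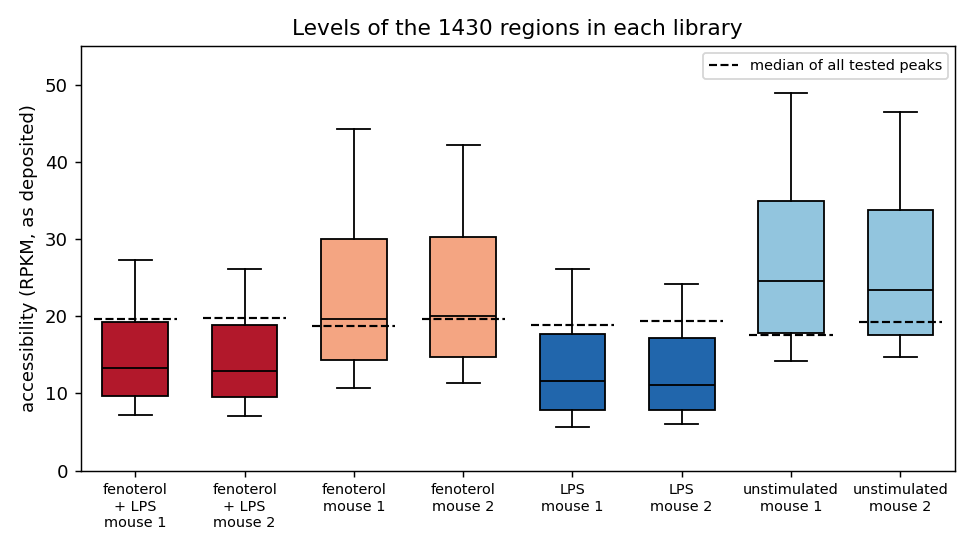
Accessibility of the 1430 regions in each library, in RPKM as deposited; boxes span the quartiles with the median as a line, whiskers run to the 10th and 90th percentiles, and dashed lines mark the median of all 66772 tested peaks in that library. Both fenoterol + LPS boxes (medians 13.3 and 12.9 RPKM) lie lower than both fenoterol boxes (19.6 and 20.1 RPKM), as the LPS boxes do against the unstimulated ones, which were used to choose the regions.

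The falls that defined the set were mostly moderate. The log2 change with LPS had a median of -0.80 in each mouse and reached -2.06 in mouse 1 and -1.92 in mouse 2. A fall of at least 2-fold in both mice was seen at 103 regions (on the RPKM + 4 scale, which understates the ratio of low levels). Just inside the limit, the peak at chr17:64964753-64965042 had 19.7 and 15.2 RPKM with LPS against 34.0 and 24.8 RPKM unstimulated (mouse 1 and mouse 2). Just outside it, the peak at chr15:12365657-12366033 had 24.2 and 19.7 RPKM with LPS against 41.1 and 31.6 RPKM unstimulated. These neighbours across the limit hardly differ, so the edge of the set is a convention.

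The 10 regions with the largest fall, ranked by the smaller of the falls in the 2 mice, were lower by 2.47- to 3.79-fold in single mice on the RPKM + 4 scale and were 199 to 1447 bp wide. A region at chr4:135451172-135451435 had 7.56 and 5.23 RPKM with LPS against 26.7 and 24.5 RPKM unstimulated. On chromosome 7, the region at 118370595 to 118370822 had 2.50 and 2.42 RPKM with LPS, which is 2 reads in each library, against 18.5 and 13.1 RPKM unstimulated. At chr2:128545086-128545432 the levels were 4.10 and 6.36 RPKM with LPS against 18.3 and 24.3 RPKM unstimulated. Most of these sites are narrow and low, and apart from the broad peak at chr13:24908220-24909667 none held more than 14 reads in the shallow unstimulated library.

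Whether the same regions fall when LPS follows fenoterol was tested on the 4 libraries with fenoterol, which the fold limits did not use and which counted in the choice through the mean of the 8 columns. Against fenoterol alone, 527 of the 1430 regions (36.9%) fell with fenoterol + LPS at an adjusted p under 0.05 (limma-trend, Benjamini-Hochberg over 66772 peaks), where 6.51% of all tested peaks fell. Higher accessibility was called at 3 regions (0.21%), where 11.9% of all tested peaks rose. The median log2 change was -0.51 over the 1430 regions and -0.03 over all tested peaks. In both mice 1112 regions (77.8%) were lower with fenoterol + LPS, against 37.1% of all tested peaks, 72 (5.03%) were higher in both, against 32.6%, and 246 went opposite ways. A decrease of 2-fold or more in each mouse was seen at 55 regions, and at 191 of the 66772 peaks tested. Leaving out mouse 1's fenoterol + LPS library gave 320 regions in place of 527, and leaving out mouse 2's gave 282, where 1797 and 1607 tested peaks fell in place of 4348. The spread at a peak rests on 2 mice per group and is moderated towards a trend of spread with mean level, fitted over all tested peaks. This trend counted as 22.8 degrees of freedom against 2 residual ones.

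**Figure D2:**
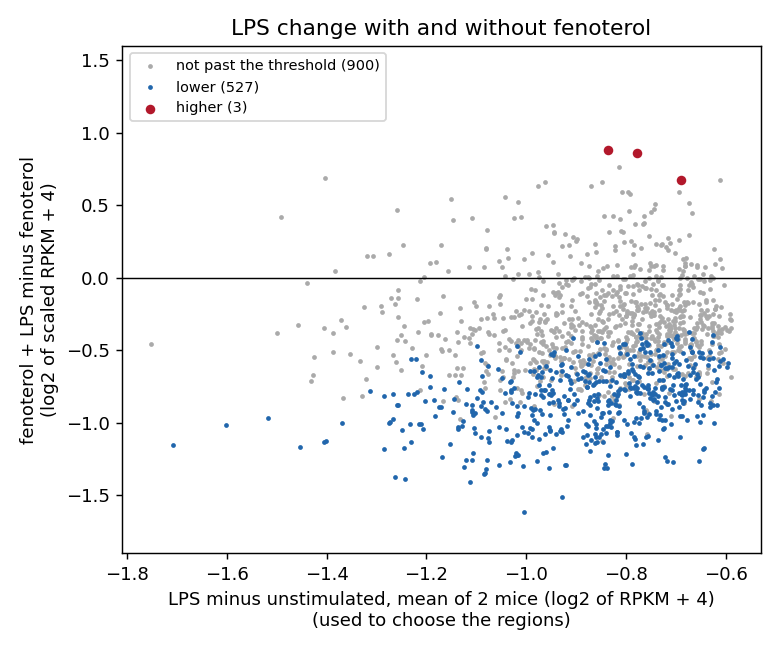
Each point is 1 of the 1430 regions, with its log2 ratio of LPS to unstimulated (mean of 2 mice, the values used for the choice) on the x axis and its log2 difference between fenoterol + LPS and fenoterol on the y axis. Most points lie below 0 on the y axis (median -0.51); the 527 called lower are blue and the 3 called higher are red.

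The share that fell was higher in classes with a larger fall without fenoterol, while the correlation between the sizes was weak. Among the 103 regions at least 2-fold lower with LPS in both mice, 49 (47.6%) fell with fenoterol + LPS, with a median log2 change of -0.67. Among the 708 whose smaller fall lay above a log2 of -0.7, 236 (33.3%) fell, with a median of -0.46. In the classes between them 37.3% of 440 and 43.6% of 179 regions fell. Across the 1430 regions the 2 changes correlated with r = 0.135 (Spearman's rho 0.156). With the LPS change of mouse 1 set against the fenoterol + LPS change of mouse 2, r was 0.00623 (rho 0.0315), and with mouse 2 set against mouse 1 it was 0.149 (rho 0.134). These values describe a set limited to 1 end of the range of LPS changes. Across all tested peaks r was 0.681, and 0.477 and 0.582 between mice. The comparisons share no library, but regions share cells and mice and are not independent replicates.

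Depth moved with the calls. At 347 regions with a mean of 40 or more reads over the 4 libraries, 250 (72.0%) fell and 329 (94.8%) were lower in both mice, against 9.03% and 43.2% of the 25056 tested peaks at this depth. At the 667 regions under 20 reads, 90 (13.5%) fell and 421 (63.1%) were lower in both mice, against 3.37% and 31.4% of 22347 tested peaks. The median log2 change was -0.64 in the deeper class and -0.40 in the shallower one. Width gave a like order, with 206 of 330 regions of 500 bp or more (62.4%) and 68 of 440 under 300 bp (15.5%) falling, against 7.41% and 5.21% of all tested peaks of these widths. Wide peaks also hold more reads, and the parts of width and depth were not tested.

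The 10 regions with the smallest adjusted p for a fall with fenoterol + LPS changed 2.11- to 2.66-fold. They were 331 to 931 bp wide and had 26 to 83 reads in the fenoterol + LPS libraries and 65 to 215 in the fenoterol libraries. The region at chr10:117522153-117523084 had 22.8 and 21.3 RPKM with fenoterol + LPS against 60.1 and 61.5 RPKM with fenoterol, a log2 change of -1.30 (SE 0.13, adjusted p = 2.21e-07 by limma-trend, n = 2 mice per group). Without fenoterol it stood at 27.1 and 22.7 RPKM with LPS against 58.8 and 59.0 RPKM unstimulated, so the 4 libraries with LPS and the 4 without it form separate, narrow ranges. The change with the largest size among the 10 was at chr2:132536162-132536674, where levels were 19.4 and 17.1 RPKM with fenoterol + LPS against 63.6 and 48.9 RPKM with fenoterol (log2 change -1.41, SE 0.15, adjusted p = 5.06e-07 by limma-trend).

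Other members of this group repeat the pattern on different chromosomes. At chr7:80739955-80740514, levels were 32.0 and 32.4 RPKM with fenoterol + LPS against 78.0 and 72.9 RPKM with fenoterol. At chr8:121947755-121948086 they were 24.7 and 23.9 RPKM with fenoterol + LPS against 62.1 and 62.0 RPKM with fenoterol. A region at chr1:16632007-16632741 had 25.7 and 24.3 RPKM with fenoterol + LPS against 60.3 and 67.5 RPKM with fenoterol. In all 10 the libraries of the groups did not overlap. Each call was kept under the refitted alternatives that used every library of both groups, with adjusted p at most 0.0179 by limma. These regions were ranked by p in the same libraries, which favours both properties.

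**Figure D3:**
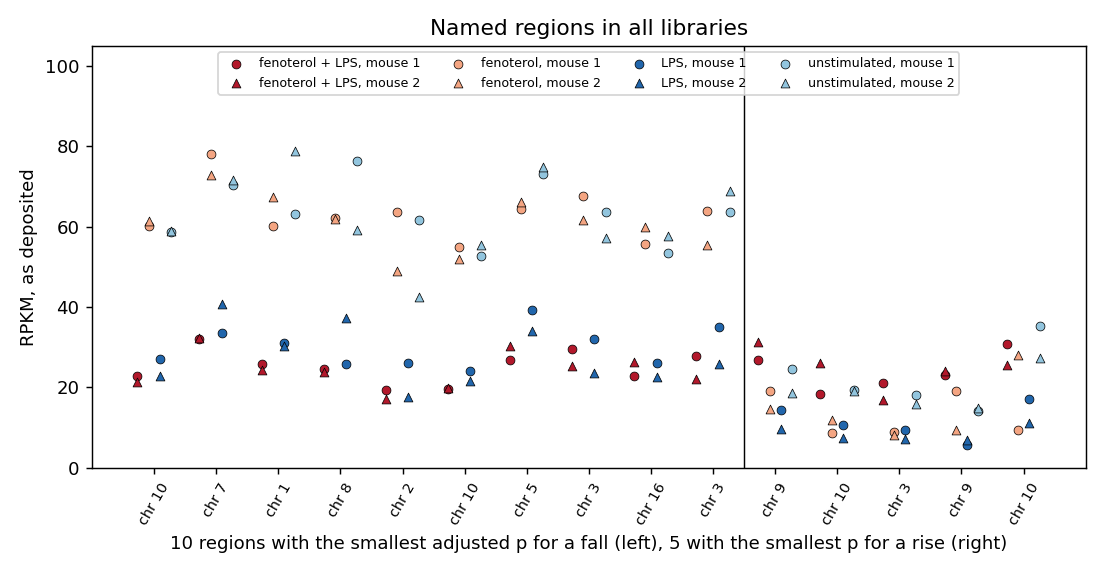
Levels in all 8 libraries, in RPKM as deposited (circles mouse 1, triangles mouse 2), of the 10 regions with the smallest adjusted p for a fall with fenoterol + LPS (left of the line) and the 5 with the smallest p for a rise (right of it), each labelled with its chromosome. On the left both groups with LPS lie lower than both groups without it; on the right the fenoterol + LPS points lie near or above the unstimulated ones.

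Among the most accessible sites, the 5 regions with the highest unstimulated levels all fell with fenoterol + LPS. Each of the 5 had a mean of 40 or more reads over the 4 libraries with fenoterol. At that depth 250 of 347 chosen regions fell, against 9.03% of tested peaks, and the part of depth was not tested. The region at chr6:124325293-124325981 had 50.8 and 49.7 RPKM with fenoterol + LPS against 92.3 and 89.4 RPKM with fenoterol (log2 change -0.79, SE 0.11, adjusted p = 7.45e-06 by limma-trend). It had 54.5 and 49.9 RPKM with LPS against 103.0 and 82.0 RPKM unstimulated. The region at chr14:69906759-69907227 had 47.4 and 44.1 RPKM with fenoterol + LPS against 110.1 and 80.3 RPKM with fenoterol. At chr2:163054718-163055267 the levels were 31.1 and 25.8 RPKM with fenoterol + LPS and 62.7 and 55.3 RPKM with fenoterol, beside 44.0 and 39.1 RPKM with LPS and 88.2 and 79.8 RPKM unstimulated. These sites remained open after LPS, at levels well above the median tested peak. The smallest change of the 5 was at chr7:87223654-87224192 (log2 change -0.42, adjusted p = 0.00821 by limma-trend), and its call was lost when either fenoterol + LPS library was left out (adjusted p = 0.205 without mouse 1, 0.0759 without mouse 2), with all 8 libraries in the fit (0.0533) and without the mean trend (0.151).

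Of the 10 regions with the largest LPS fall, 4 fell with fenoterol + LPS. The share that fell was 36.9% over all 1430 regions and 6.51% over all tested peaks. The broad chromosome 13 peak had 12.7 and 14.1 RPKM with fenoterol + LPS against 30.6 and 39.9 RPKM with fenoterol (log2 change -1.15, SE 0.19, adjusted p = 8.66e-05 by limma-trend). The chromosome 4 region named above had 8.73 and 7.53 RPKM with fenoterol + LPS against 21.6 and 18.2 RPKM with fenoterol (adjusted p = 0.0124 by limma-trend). At 128545086 on chromosome 2, levels were 2.95 and 5.72 RPKM with fenoterol + LPS against 14.6 and 14.6 RPKM with fenoterol (adjusted p = 0.025 by limma-trend). At 118370595 on chromosome 7 they were 5.62 and 4.98 RPKM with fenoterol + LPS against 11.1 and 19.9 RPKM with fenoterol (adjusted p = 0.0399 by limma-trend). The libraries of the groups did not overlap at any of the 4, but at the last 3, with 4 to 9 reads in the fenoterol + LPS libraries, the calls did not survive leaving out most single libraries. The chromosome 4 call held only without mouse 2's fenoterol library (adjusted p 0.0537 to 0.121 otherwise), the chromosome 2 call only without mouse 2's fenoterol + LPS library (0.092 to 0.153 otherwise) and the chromosome 7 call only without mouse 1's fenoterol library (0.117 to 0.349 otherwise). The chromosome 7 call was also lost with 0.8 RPKM added in place of 4 (0.0546), with all 8 libraries in the fit (0.0718) and by voom on the recovered reads (0.0666). A region at chr7:152257861-152258218 did not pass (log2 change -0.81, adjusted p = 0.0579 by limma-trend) but did with the mouse as a block (0.0379), after quantile normalization (0.0316) and by voom (0.0249). A region at chr16:33179992-33180315 had 11.9 and 11.4 RPKM with fenoterol + LPS and 9.78 and 14.8 RPKM with fenoterol, so its groups overlapped (log2 change -0.03), and with mouse 2's fenoterol library left out the log2 change was 0.17.

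The 72 regions that were higher in both mice with fenoterol + LPS were narrower and shallower than the 1430 as a whole. Their median width was 248 bp, against 377 bp for all 1430, and the median region held 17 and 14 reads with fenoterol + LPS and 9 and 12 reads with fenoterol. Over all 1430 the medians were 19 and 16 reads with fenoterol + LPS and 23 and 28 with fenoterol. Regions that went opposite ways held 15 and 13 reads with fenoterol + LPS, fewer than the 72, and 12 and 16 with fenoterol. Median levels of the 72 were 15.4 RPKM with fenoterol + LPS, 11.1 RPKM with fenoterol, 8.78 RPKM with LPS and 19.2 RPKM unstimulated. The 527 regions that fell had medians of 16.1, 31.7, 16.4 and 33.7 RPKM in the same order of groups. Which region belongs to which class follows from the fenoterol libraries themselves, so these medians are a description.

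Calls went upward at 3 sites. The region at chr10:36923542-36923943 had 18.5 and 26.1 RPKM with fenoterol + LPS against 8.67 and 11.96 RPKM with fenoterol (log2 change 0.88, SE 0.25, adjusted p = 0.0137 by limma-trend). It had 10.6 and 7.54 RPKM with LPS against 19.2 and 19.1 RPKM unstimulated. The region at chr3:69328864-69329252 had 21.0 and 16.8 RPKM with fenoterol + LPS against 8.96 and 8.24 RPKM with fenoterol (log2 change 0.86, adjusted p = 0.0256 by limma-trend). The region at chr9:121482422-121482621 had 26.9 and 31.3 RPKM with fenoterol + LPS against 19.1 and 14.7 RPKM with fenoterol (log2 change 0.68, adjusted p = 0.0122 by limma-trend). At each of the 3, fenoterol + LPS was above fenoterol alone in both mice while LPS was below unstimulated in both. The fenoterol counts behind them were 11 to 18 reads. The chromosome 10 call was lost when mouse 2's fenoterol + LPS library was left out (adjusted p = 0.286), and the chromosome 3 call when that of mouse 1 (0.285) or mouse 2 (0.103) was. The chromosome 9 call was lost when either of them (0.0675 and 0.189) or mouse 2's fenoterol library (0.0666) was left out, and in 3 other refits. The count of 3 became 5 with the mouse as a block, 1 and 0 when the fenoterol + LPS library of mouse 1 or of mouse 2 was left out, and 9 when mouse 2's fenoterol library was.

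Levels with fenoterol alone and with both agents can be set beside the groups that chose the regions, but each such pair shares a group with the selection. Regions were picked for high unstimulated and low LPS values, so other groups can be expected to lie between them by the choice alone, and no comparison was tested. The mean of the mice had a median of 13.2 RPKM with fenoterol + LPS and 11.2 RPKM with LPS. It was 19.9 RPKM with fenoterol and 23.5 RPKM unstimulated. The fenoterol mean lay between the LPS and unstimulated means at 1115 regions (78.0%), at or above the unstimulated mean at 293 (20.5%) and at or below the LPS mean at 22 (1.54%). The fenoterol + LPS mean lay between them at 949 regions (66.4%), at or below the LPS mean at 460 (32.2%) and at or above the unstimulated mean at 21 (1.47%). At 967 regions (67.6%) all 4 libraries with LPS were below all 4 without it. The fold limits already put the LPS library of each mouse below its unstimulated one. The share of this pattern among all tested peaks was not counted.

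In shape, the regions were narrower and lower than tested peaks in general. Their median width was 377 bp (quartiles 274 and 483), against 421 bp (325 and 572). The mean over the 8 libraries had a median of 16.7 RPKM (12.7 and 24.8), against 18.6 RPKM (13.2 and 30.5), and a maximum of 71.5 RPKM, against 219.8 RPKM. The smallest width in the table, 199 bp from start to end, was found at 75 regions (5.24%) and at 3.45% of tested peaks. The mean includes the LPS and unstimulated columns that the rule used, whereas the width is not part of the rule. Narrow peaks hold fewer reads, and the part of read number in the choice was not tested.

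The regions were spread over all autosomes and chromosome X. They made up between 1.39% of tested peaks on chromosome 18 and 2.59% on chromosome 1, with 2.14% as the share of the whole tested set. Chromosome X held 24 (1.57%) and chromosome Y 0 of 32 tested peaks. The share of regions that fell with fenoterol + LPS was lowest on chromosome X, with 6 of 24 regions, and highest on chromosome 16, with 24 of 47 (51.1%). Over all regions it was 36.9%. The share of all tested peaks that fell was not counted by chromosome, and differences between chromosomes were not tested.

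Regions lay closer to each other than tested peaks did to them. Another of the 1430 was within 20 kb of 214 regions (15.0%), and a chosen region lay within 20 kb of 6.10% of all tested peaks. Within 1 kb these shares were 2.94% and 0.553%. The distance to the next tested peak of any kind was also shorter, with a median of 3.43 kb against 4.81 kb. Peaks that gained at least 1.5-fold in both mice with LPS, of which there were 4562, were less frequent nearby: 152 regions (10.6%) had 1 within 20 kb, against 16.7% of all tested peaks, and 5 regions (0.35%) had 1 within 1 kb, against 1.73%. Of the 152, 67 (44.1%) fell with fenoterol + LPS, and of the 1278 others 460 (36.0%). The gained peaks themselves rose with fenoterol + LPS in 74.5% and fell in 0.132% of cases.

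Other peaks near the regions also fell more often when LPS followed fenoterol. Of 327 tested peaks outside the set but within 1 kb of a chosen region, 58 (17.7%) fell and 19 (5.81%) rose. Of 849 at 1 to 5 kb, 123 (14.5%) fell and 84 (9.89%) rose. The share that fell was 9.20% at 5 to 20 kb, 7.26% at 20 to 100 kb and 5.18% beyond 100 kb, where 12.3% rose. The median log2 change ran from -0.21 within 1 kb to -0.01 beyond 100 kb. Nearby peaks were also taller. Their mean over the 8 libraries had a median of 22.6 RPKM within 1 kb and 23.2 RPKM at 1 to 5 kb. Beyond 100 kb it was 18.2 RPKM, and the part of level in the shares was not tested. Peaks that missed the limit by at most 0.1 on the log2 scale numbered 1038, of which 306 (29.5%) fell. These shares are descriptions: neighbouring peaks share fragments and chromatin and are not independent.

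**Figure D4:**
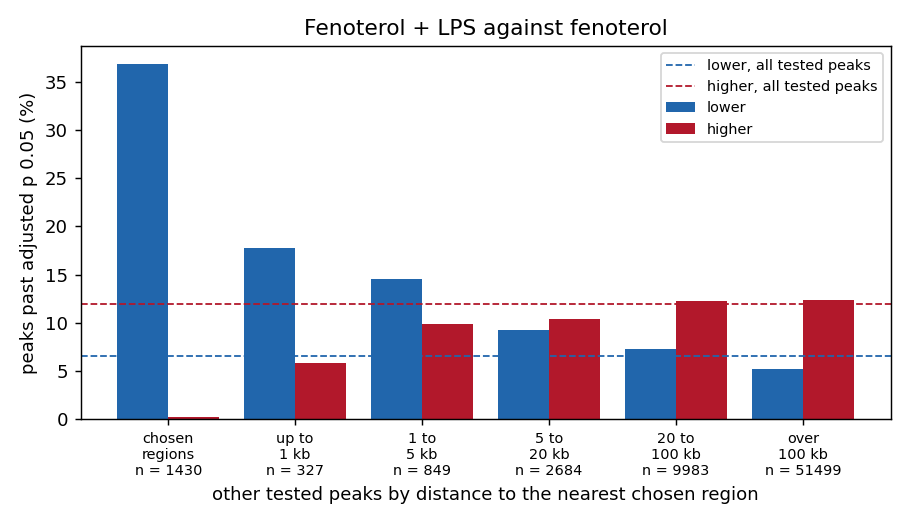
Share of peaks past an adjusted p of 0.05 for fenoterol + LPS against fenoterol, in percent, lower (blue) and higher (red), for the 1430 chosen regions and for other tested peaks by distance to the nearest of them; dashed lines mark the shares among all tested peaks (6.51% lower, 11.9% higher). The share that fell is 36.9% in the regions, 17.7% within 1 kb and 5.18% beyond 100 kb, while the share that rose goes the other way, from 0.21% through 5.81% to 12.3%.

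Most regions stood alone. When regions at most 20 kb apart were joined, 1216 were single and 214 formed 99 runs, of which 87 held 2 regions, 9 held 3, 2 held 4 and 1 held 5. The run of 5 spanned 21801 bp at chr5:139863828-139885629 and contained 3 other tested peaks. Its tallest region, at 139884386 to 139884895, had 48.6 and 41.7 RPKM with fenoterol + LPS against 85.7 and 79.0 RPKM with fenoterol (log2 change -0.80, SE 0.11, adjusted p = 1.74e-05 by limma-trend), and 49.1 and 44.8 RPKM with LPS against 77.2 and 76.3 RPKM unstimulated. The region at 139879810 to 139880181 had 19.3 and 15.2 RPKM with fenoterol + LPS against 40.9 and 37.3 RPKM with fenoterol (log2 change -1.01, adjusted p = 0.000106 by limma-trend). The peak between them at 139880944 to 139881443 is outside the set and fell as well, with 25.1 and 31.7 RPKM with fenoterol + LPS against 41.2 and 50.2 RPKM with fenoterol (adjusted p = 0.0039 by limma-trend). The other 2 peaks outside the set had log2 changes of 0.20 (adjusted p = 0.641) and -0.09 (0.864) by limma-trend. The third call was at 139885408 to 139885629 (log2 change -0.51, adjusted p = 0.00889 by limma-trend). It was lost with mouse 1's fenoterol + LPS library (adjusted p = 0.166) or mouse 1's fenoterol library (0.0785) left out, without the mean trend (0.118) and by voom (0.0984). The 2 low regions at the start of the run, with 7 to 16 reads in the fenoterol libraries, had adjusted p of 0.225 and 0.303 by limma-trend.

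The run on chromosome 1, of 4 regions over 23299 bp from 133576131 to 133599430, had 2 calls. It contained 2 other tested peaks. That at 133597114 to 133597438 fell as well (log2 change -0.83, adjusted p = 0.00413 by limma-trend). That at 133585117 to 133585404 did not pass (log2 change -0.32, adjusted p = 0.158 by limma-trend). Nor did the first region, at 133576131 to 133576695 (log2 change -0.44, adjusted p = 0.194 by limma-trend). The region at 133587731 to 133588474 had 41.6 and 29.3 RPKM with fenoterol + LPS against 57.0 and 73.1 RPKM with fenoterol (log2 change -0.80, adjusted p = 0.000209 by limma-trend). That call was lost without the mean trend (0.0679). Its neighbour at 133587004 to 133587493 had 38.6 and 39.9 RPKM with fenoterol + LPS against 48.5 and 49.0 RPKM with fenoterol (log2 change -0.27, adjusted p = 0.129 by limma-trend). It had 33.7 and 27.5 RPKM with LPS against 66.0 and 66.8 RPKM unstimulated. The fourth region, at 133598990 to 133599430, had 16.2 and 14.1 RPKM with fenoterol + LPS against 26.6 and 30.9 RPKM with fenoterol (adjusted p = 0.00606 by limma-trend, and 0.068 with mouse 2's fenoterol + LPS library left out).

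The run on chromosome 9, of 4 regions over 23027 bp from 123856921 to 123879948, had no call, with adjusted p of 0.109 to 0.198 by limma-trend and log2 changes of -0.65 to -0.46, although with mouse 2's fenoterol library left out the region at 123858765 to 123859069 passed (adjusted p = 0.0088). Unadjusted p was under 0.05 at 2 of the 4. The 1 other tested peak in this run, at 123874411 to 123874805, went the opposite way. It had 28.5 and 29.4 RPKM with fenoterol + LPS against 11.2 and 9.47 RPKM with fenoterol (log2 change 1.21, SE 0.21, adjusted p = 0.000223 by limma-trend), and 31.0 and 28.6 RPKM with LPS against 16.0 and 10.7 RPKM unstimulated. This peak was higher in all 4 libraries with LPS than in the 4 without, between regions chosen for the opposite direction.

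**Figure D5:**
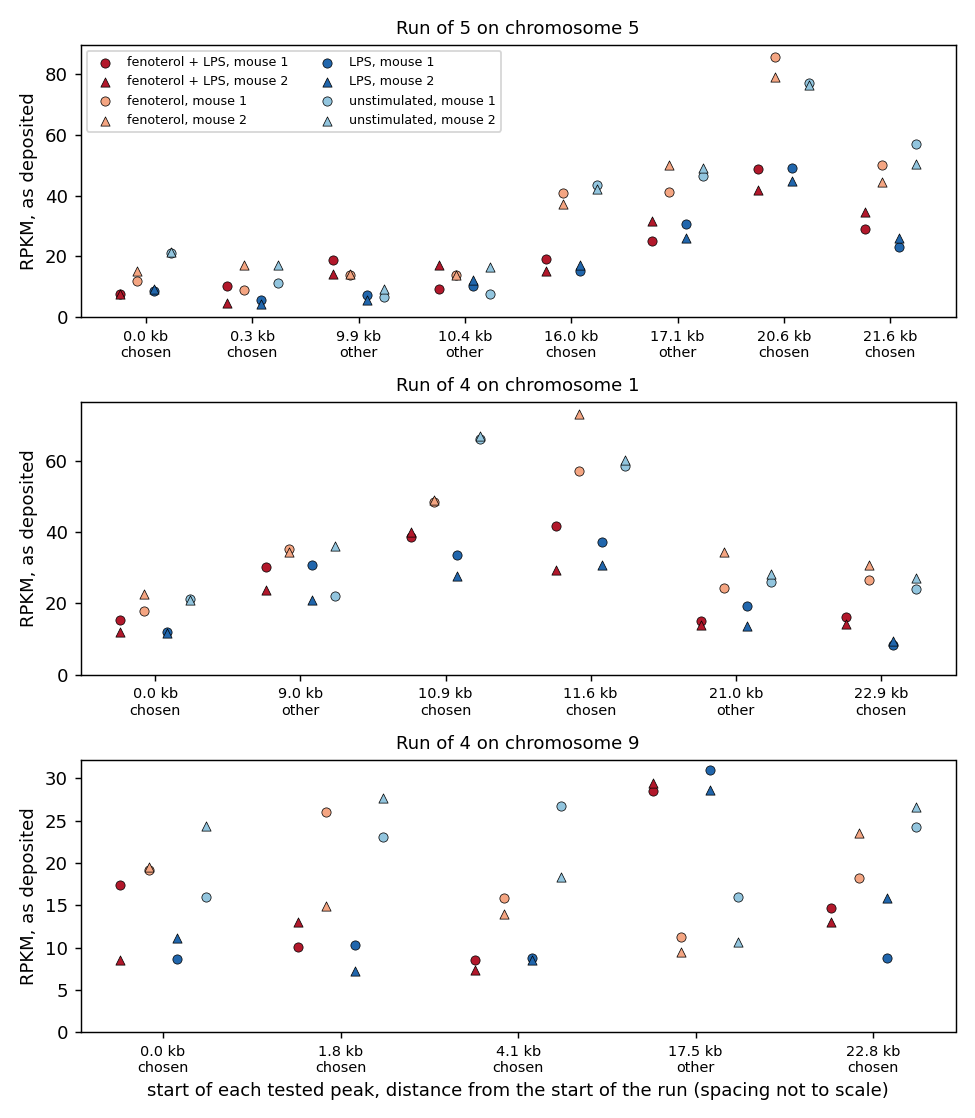
Levels in RPKM as deposited of every tested peak in the runs with the most chosen regions, on chromosomes 5, 1 and 9 (circles mouse 1, triangles mouse 2), by distance of each peak's start from the start of the run; peaks are evenly spaced for legibility. In the chromosome 9 run the peak at 17.5 kb, outside the set, has 28.5 to 31.0 RPKM in the 4 libraries with LPS, above its 4 libraries without LPS, between regions that were chosen for lower levels with LPS.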

How the data were processed

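ATAC-seq gave 8 libraries, 4 groups of 2 mice. The submitters' processing notes name cutadapt, Bowtie2, MACS2, HOMER and the build mm9. How duplicates, the Tn5 shift and pooling for peak calling were handled, and the tools' versions, is not given in the sources used here. RPKM values made by the authors fill the deposited table, relative to reads in peaks. Values times peak length were whole multiples of 1 read (100% within 0.01 read), so reads were recovered; peaks without reads appear to be set to 1 read, 1598 times in mouse 1's unstimulated library and 20 to 202 times elsewhere.

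Values were divided by median-ratio size factors (0.940 to 1.04), 4 RPKM was added and log2 taken. Limma 3.58.1 (limma-trend, R 4.3.3) was fitted to the 4 libraries with fenoterol, which the fold limits of the selection did not use, though its limit on the mean of 8 columns did; Benjamini-Hochberg adjustment ran over 66772 peaks and the threshold was 0.05. Levels in the text are as deposited. An exact permutation test of 2 against 2 libraries cannot go below p = 0.333. The test was tried on simulated reads. The regions, rules for naming them and tests were chosen with earlier results of these data known. Named were the 10 regions with the largest fall, the 10 with the smallest adjusted p for a fall and up to 5 for a rise with fenoterol + LPS, the 5 tallest, those beside the limit and the 3 runs with the most regions. Alternatives changed the membership, scaling, added constant, filter, model and the libraries in the fit.

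The labels tie the libraries of a number to 1 mouse, which pairs them; differences between mice correlated weakly across groups, at 0.0231 to 0.0726. Read counts of the 2 mice of a group differed about as much as counting noise (chi-square over degrees of freedom 0.849 to 1.28). Pairs of a fenoterol and an unstimulated library gave 0.917 to 1.32, and pairs of a fenoterol + LPS and an LPS library 1.10 to 1.36. Pairs of a library with LPS and a library without it gave 2.16 to 3.93. The labels give separate mice, and no libraries were merged.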

Additional observations from a re-analysis of the deposited data

Results flagged for a closer look

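Regions that were lower with LPS in both mice but higher in both when LPS followed fenoterol stood out because the direction differs between the contrasts. There were 72 of them among the 1430. A rise in each mouse with fenoterol + LPS was more frequent elsewhere, at 21749 of the 66772 tested peaks. It was also more frequent at tested peaks outside the set that were lower with LPS in both mice (2149 of 19468). The difference between the contrasts was not tested, since the selection used one of them. Of the 5 regions with the smallest p for a rise, 4 belong here: chr9:121482422-121482621 (peak72229, log2 change 0.68), chr10:36923542-36923943 (peak6309, 0.88), chr3:69328864-69329252 (peak44525, 0.86) and chr9:105406286-105406485 (peak71472, 0.66; adjusted p = 0.0557 by limma-trend, 0.0197 when mouse is a block, and 0.00172 when mouse 1's fenoterol library is left out). The last had 23.1 and 24.2 RPKM with fenoterol + LPS against 19.1 and 9.37 RPKM with fenoterol, and 5.71 and 6.91 RPKM with LPS against 14.1 and 14.9 RPKM unstimulated, with 4 and 12 reads in the unstimulated libraries.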

How the results depend on the processing

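Of 17 alternatives none turned the direction of the median change, and 12 moved it by more than its SD between mice (0.00407). The share lower in both mice is a percentage with no direction to turn. In 6 alternatives it moved by more than 1.09 percentage points. That limit is the SD between the share lower in mouse 1 and the share lower in mouse 2, each counted alone. Leaving out a library gives no share lower in both mice, and the lone sample left is assumed to vary like the others. Members called lower (527) numbered 319 without the mean trend, 49 of 103 (47.6%) when membership needed a 2-fold fall and 296 of 427 (69.3%) when it needed 20 or more reads in both unstimulated libraries; leaving out 1 library gave 282 to 451. Calls upward (3) were 0 under both of these memberships, 5 with the mouse as a block (replicate block) and 0 to 9 without 1 library. Tested peaks called lower (4348) became 1646 without the trend, 2882 with all 8 libraries and 1607 to 5178 without 1 library; those called higher (7965) became 5236 without the trend and 3607 to 8899 without 1 library. With the block 599 members and 5650 tested peaks fell and 8987 tested peaks rose. Among named regions it added calls at chr7:152257861-152258218 (adjusted p = 0.0379 by limma-trend, against 0.0579), chr9:105406286-105406485 (0.0197, against 0.0557) and chr10:59853857-59854056 (0.012, against 0.0844) and ended none.

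The share lower in both mice (77.8%) was 84.5% for 2-fold membership, 79.1% for membership on scaled values (1620 regions, 1328 shared), 95.1% for the deeper members, 78.9% on values as deposited, 81.8% (81.75) after quantile normalization and 82.5% with the lowest 25% of peaks left out. The median log2 change (-0.5087) was -0.674 for 2-fold membership, -0.626 for the deeper members, -0.5217 as deposited, -0.5796 after quantile normalization, -0.6006 and -0.2841 with 0.8 and 20 RPKM added, -0.5452 with the lowest 25% left out, -0.6208 by voom on recovered reads and -0.522 to -0.4911 without 1 library. Of 595 values for 43 named regions, 31 lost and 8 gained a call and 1 reversed, at chr16:33179992-33180315, whose log2 change ran from -0.24 to 0.17 with 1 library left out (0.17 without mouse 2's fenoterol library). The causes were not tested. Read numbers were low in mouse 1's unstimulated library, which the fold limit used, and their part in the choice of regions was not tested.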
